A study of Mus musculus with 9 samples.

Results

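Retinal organoids of 2 knockout lines were set against wild-type organoids at differentiation day 23 (DD23), and the genes that differed from wild type in the same direction in both lines were described. The organoids were retina-like tissue grown in floating culture from mouse ES or iPS cells by quick reaggregation, and the knockout lines were engineered to form fewer bipolar cells. The groups were B4KO, a knockout of Bhlhb4 (now Bhlhe23); Isl1KO, a knockout of Islet-1 (Isl1); and WT, the wild-type line. Each was sampled on 1 array at day 23, with RNA of 5 organoids pooled, so 3 of the 9 arrays of the series enter the comparison; the other 6 hold the same lines at days 10 and 16 (DD10 and DD16). The number of clones per line, the exact deletions and whether WT is the parental line of the knockouts are not given in the sources used here.

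A gene was analysed if 2 or more of the 3 day-23 arrays flagged its probe as well above background, which 23053 genes met. Values are log2 intensities relative to the 75th percentile of the array, so that 0 is the level of a probe at that percentile, and differences are knockout minus WT on the log2 scale. Both differences had the same sign for 15091 genes, of which 7666 were higher in both knockouts (33.3% of the genes analysed) and 7425 were lower in both (32.2%). The other 7962 had opposite signs. With 1 array per line and day there is no replicate error and no test, and because both differences are taken against the same WT array, a value peculiar to that array appears in both of them. In pooled organoids, fewer cells of a type and less RNA per cell cannot be told apart.

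The neural retina holds rod and cone photoreceptors, bipolar, horizontal, amacrine and ganglion cells, and Mueller glia, all born from a common progenitor pool in an overlapping order. Isl1 is a LIM-homeodomain transcription factor used by ganglion cells, cholinergic starburst amacrine cells and ON bipolar cells, whereas Bhlhe23 is a basic helix-loop-helix factor needed for rod bipolar cells to mature. Organoids made from pluripotent cells can also carry tissue of other fates, such as hindbrain, choroid plexus, pigment epithelium and connective tissue.

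Retinal markers were present on all 3 arrays. The photoreceptor regulator Crx had a signal of 6.63 in B4KO, 6.69 in Isl1KO and 6.33 in WT, and the eye-field factor Rax one of 6.17, 6.09 and 5.84 in the same order of lines. Of the 59305 gene spots, 60.5% were well above background in B4KO, 67.8% in Isl1KO and 65.6% in WT, and none was saturated. The B4KO array was on a different slide from the other 2, so B4KO and slide cannot be told apart, while Isl1KO and WT shared a slide. Dim probes read lower on the B4KO array. The genes were split into 4 equal bins by mean signal over all arrays of the series, those of days 10 and 16 included. A gene that was dim at the earlier days can therefore lie in a dim bin whatever its signal at day 23. The shares of all genes given by bin are thus not matched to the day-23 signal of a list. In the dimmest bin the median difference from WT was -0.52 in B4KO and -0.11 in Isl1KO at day 23, and in B4KO it was also -0.49 at day 10 and -0.33 at day 16. In the brightest bin the day-23 medians were 0.17 in B4KO and 0.08 in Isl1KO. From the dimmest to the brightest bin, 52.97%, 39.98%, 23.1% and 12.8% of all genes were lower in both knockouts, and 13.6%, 24.2%, 39.2% and 56.0% were higher in both. Over 8 added spike-in RNAs the differences from WT ran between -1.04 and 0.27 in B4KO and between -0.18 and 0.16 in Isl1KO. Both lowest values came from the dimmest spike-in, and all others were above 0 in both lines. The medians over the 8 were 0.15 in B4KO and 0.12 in Isl1KO. How far the dim-signal shift and these positive spike-in differences enter the results below was not tested. Beside the count of a list stand the bins, from dim to bright, of all or part of its members.

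**Figure D1:**
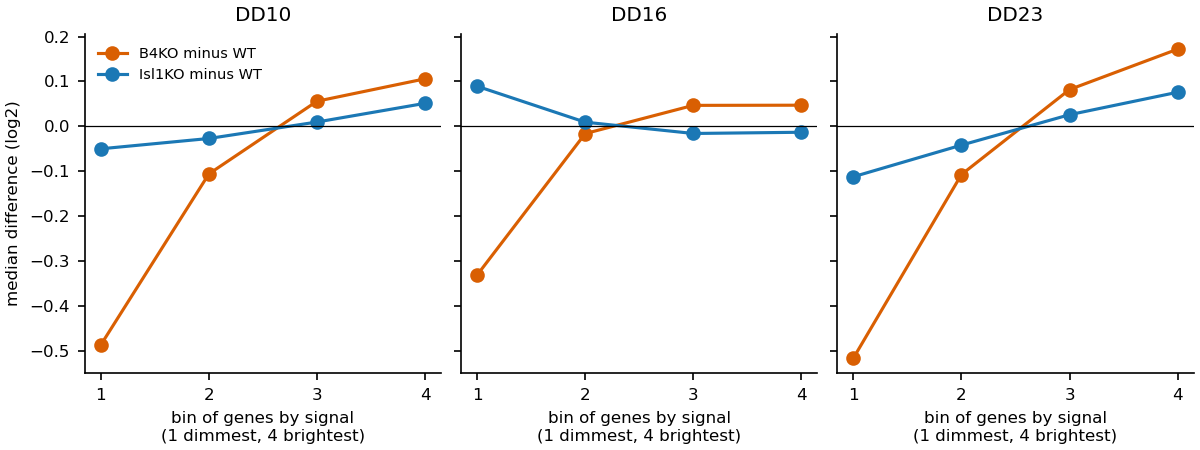
Median difference from WT (log2, vertical axis) over the genes of each of 4 equal bins of mean signal (horizontal axis, 1 dimmest to 4 brightest), for B4KO (orange) and Isl1KO (blue) at each day. The mean signal was taken over all arrays of the series. In B4KO the dimmest bin sat at -0.49, -0.33 and -0.52 at days 10, 16 and 23, whereas those of Isl1KO stayed between -0.11 and 0.09.

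The targeted genes were read first. For Isl1, the probe at chr13:117099604-117099663 (mm9) read -0.05 in B4KO, -1.63 in Isl1KO and -0.05 in WT, which is 2.99-fold lower in Isl1KO than in WT. A second Isl1 probe at chr13:117088774-117088833 read -0.94 in B4KO, -0.92 in Isl1KO and -0.66 in WT and did not set Isl1KO apart. The Bhlhe23 probe at chr2:180509639-180509698 was not well above background in B4KO or Isl1KO and read -4.55 in WT, so it was at least 1.12-fold lower in B4KO and at least 1.80-fold lower in Isl1KO and did not distinguish the knockouts from each other. Bhlhe23 was above background on 1 array only and is not among the genes analysed. Since the deleted parts are not given, neither probe is shown to lie inside one.

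At a difference of at least 2-fold in both lines, 26 genes were higher in both knockouts (0.113% of the genes analysed) and 166 were lower (0.72%). These counts are fixed by the rule that chose the genes and nothing is read from their size. Quantile normalization gave 46 higher and 137 lower, and centring each array on its median gave 40 and 107, which raised the share of higher genes among the calls to 25.1% and 27.2%, against 13.5%. Median centring moved the median of all genes to 0.24 in B4KO and 0.11 in Isl1KO. Of these, 9 higher genes (0.039%) and 98 lower genes (0.425%) were well above background on all 3 arrays. With dim values raised to the lowest signal detected on their array, 11 genes (0.0477%) were higher and 156 (0.677%) lower. Of the 26 higher genes, 17 were dim in WT, and of the 166 lower genes 57 were dim in B4KO and 11 in Isl1KO. By bin of signal, dim to bright, 122, 35, 9 and 0 of the shared lower genes were found, and 19, 5, 1 and 1 of the higher. The filter passes a gene seen only in both knockouts but not one seen only in WT. In a single line, 2423 genes were lower by 2-fold in B4KO (10.5%) and 386 in Isl1KO (1.67%). Just inside the limit was Calb2 at -1.001 in B4KO and -1.67 in Isl1KO, and just outside it was Chl1 at -0.996 and -1.74. On the higher side Pgm5 was just inside at 1.03 and 1.01, and Pvt1 just outside at 0.99 and 1.08.

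**Figure D2:**
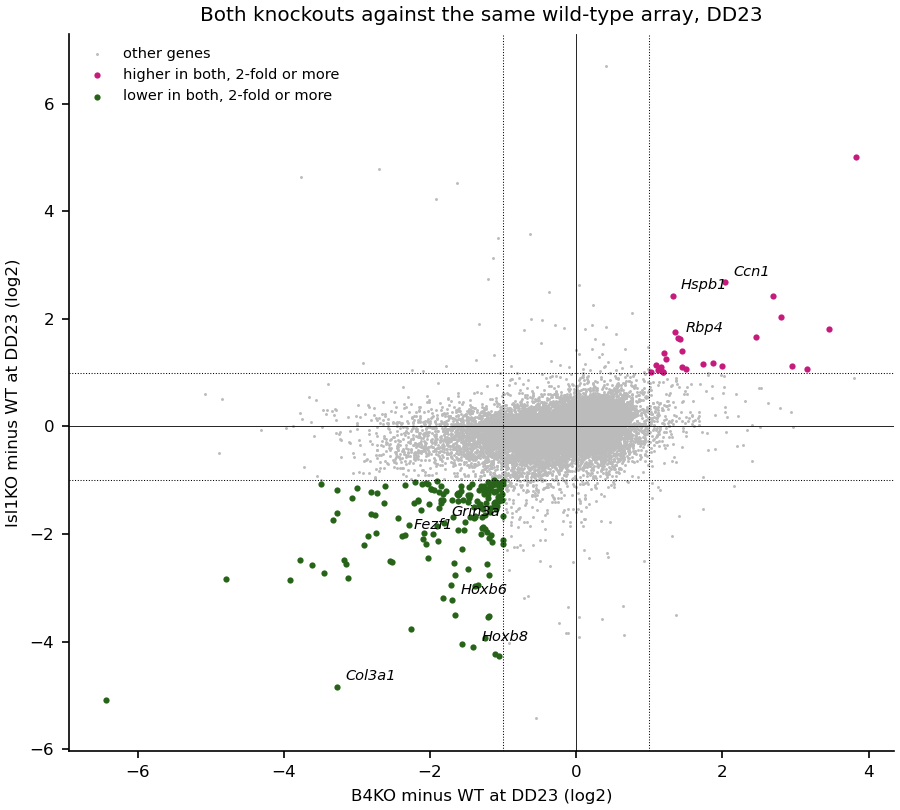
Difference from WT at day 23 in B4KO (horizontal axis, log2) and in Isl1KO (vertical axis, log2) for the 23053 genes analysed; dotted lines mark 2-fold, pink and green points are the 26 higher and 166 lower genes. Both axes use the same WT array, and genes dim on 1 array are drawn at their measured value, which has no order there.

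Among the genes lower in both knockouts that were measured on all 3 arrays, Col3a1, which encodes the chain of the fibrillar collagen III of connective tissue, had the largest shared difference. Its signal was -3.59 in B4KO and -5.15 in Isl1KO, against -0.32 in WT, so it was 9.66-fold lower in B4KO and 28.6-fold lower in Isl1KO (probe at chr1:45405589-45405648, mm9). Col1a1 and Col1a2, the 2 chains of collagen I, were also lower in both. Col1a1 read -0.79 in B4KO and -0.91 in Isl1KO, against 0.53 in WT, and Col1a2 read 0.45 and -0.41, against 1.62 in WT. The proteoglycan Dcn differed by -0.77 in B4KO and -1.68 in Isl1KO, and the matrix protein Postn by -0.83 and -1.57. Col6a3, named after its values were seen, was 3.17-fold lower in B4KO and, dim there, at least 6.80-fold lower in Isl1KO, while another of its probes differed by -0.93 in Isl1KO. That bound holds in the main processing, and over the alternative settings the Isl1KO difference of Col6a3 was as small as -1.47. These genes were a minority of the mesenchyme list: of 25 measured members, 9 were lower in both lines, 4 of them by 2-fold, 5 were higher in both and 11 had opposite signs. The bins hold 6, 9, 6 and 4 of the members. The list medians were 0.06 in B4KO and -0.64 in Isl1KO, beside -0.0014 and 0.0059 over all genes, and the B4KO median changed sign when genes seen on 1 array were let in. The defining mesenchymal regulators Twist1, Twist2 and Foxc1 did not pass the filter.

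Genes of the hindbrain and spinal cord formed the list with the most 2-fold lower members. Hox genes set position along the trunk and hindbrain and are not part of the retinal programme. Of 17 measured members, 14 were lower in both knockouts, 5 of them by 2-fold, and none was higher in both, with medians of -1.13 in B4KO and -0.53 in Isl1KO. Hoxb8 read -1.66 in B4KO and -4.34 in Isl1KO, against -0.25 in WT, which is 2.66-fold and 17.1-fold lower. Hoxb7 read -0.90 and -3.23 in the knockouts, against 0.29 in WT. Hoxb6 read -2.95 in B4KO and -4.48 in Isl1KO, against -1.26 in WT. Hoxb5 was at -2.46 and -3.58, against -0.81 in WT, and Hoxc4 at -2.44 and -3.67, against -0.73 in WT. In each of these 5 genes Isl1KO was lowest and WT highest. The 4 Hoxb probes lie within one cluster on chromosome 11 (chr11:96146576-96146635 for Hoxb8 to chr11:96167130-96167189 for Hoxb5, mm9), so they are not independent of each other. The remaining shared members did not reach 2-fold in at least 1 line, such as En2 at -0.33 in B4KO and -1.27 in Isl1KO. In the dimmest bin lie 8 of the 17 members, and in the next bin another 8, where 52.97% and 39.98% of all genes were lower in both lines. The bins average all days, so signals below background at the earliest day, as for Hoxb8 and Hoxb6, enter them. Of the 38 listed names, 21 did not pass the filter, among them Egr2, En1 and Atoh1.

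Genes used by most neurons were also lower. The pan-neuronal and synaptic list had 28 of 38 members lower in both knockouts, 2 higher and none at 2-fold, with medians of -0.47 in B4KO and -0.36 in Isl1KO. Of its members 17 lie in the brightest bin and 9 in the next, where 12.8% and 23.1% of all genes were lower in both lines. Syn2, which encodes the synaptic vesicle protein synapsin II, read 0.14 in B4KO and -0.36 in Isl1KO, against 1.0005 in WT. Other Syn2 probes gave differences as small as -0.0025 in B4KO and -0.27 in Isl1KO. Scn2a, a voltage-gated sodium channel of axons, read -1.12 and -1.25, against -0.36 in WT, with other probes giving differences as small as -0.04 in B4KO and -0.18 in Isl1KO. The vesicle fusion gene Snap25 did not follow in both lines, at -0.71 in B4KO and -0.00 in Isl1KO.

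Ganglion cell genes were lower in both lines for 18 of 24 measured members and higher for 2, with medians of -0.33 in B4KO and -0.55 in Isl1KO. The bins hold 3, 5, 8 and 8 of the members, and over all genes 32.2% were lower in both. Isl1 itself is a member. The list shares Stmn2 and Elavl4 with the pan-neuronal list, and Ebf1 and Ebf3 with the amacrine list. The counts of these lists are therefore not independent. Gap43, a protein of growing axons, read 3.28 in B4KO and 2.96 in Isl1KO, against 4.14 in WT. Slc17a6, the vesicular glutamate transporter of ganglion cells, read -1.25 and -1.99, against -0.46 in WT. The neurofilament gene Nefl read 2.04 and 1.02, against 2.58 in WT, and Stmn2 read 4.35 and 4.48, against 5.05 in WT. The ganglion cell factor Pou4f2 differed by -1.07 in B4KO and -0.53 in Isl1KO, and its relative Pou4f1 by -1.19 and -0.36. Pou4f2, Pou4f1 and the members that follow lie outside the naming rule, and the latter were named after their values were seen. Thy1 and Sncg were lower mainly in Isl1KO. Thy1 was 1.41-fold lower in B4KO and 4.32-fold lower in Isl1KO, and Sncg was 1.15-fold and 3.98-fold lower, the B4KO difference of Sncg turning positive with median centring. Melanopsin (Opn4), the photopigment of intrinsically photosensitive ganglion cells, was dim in B4KO and read -4.53 in Isl1KO, against -3.17 in WT. In the main processing Opn4 was at least 2.91-fold lower in B4KO and 2.58-fold lower in Isl1KO. Over the alternative settings its B4KO difference was as small as -0.75.

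Among amacrine markers, 12 of 31 were lower in both knockouts and 7 higher, with medians of -0.29 in B4KO and 0.09 in Isl1KO. That is 38.7% lower, close to the 32.2% over all genes, and the bins hold 5, 11, 11 and 4 of the members. The neuropeptide gene Npy read -2.45 in B4KO and -2.44 in Isl1KO, against -1.19 in WT. Calb2, which encodes the calcium-binding protein calretinin, read -1.55 and -2.22, against -0.55 in WT, while another of its probes differed by -0.57 in B4KO and -1.46 in Isl1KO. The transcription factor Ebf1 read -1.05 and -2.21, against -0.16 in WT. For the starburst subtype, 6 of 9 measured members were lower in both lines and none higher, with medians of -0.20 in B4KO and -1.25 in Isl1KO, the B4KO value being 0.04 with median centring. The bins hold 3, 4, 1 and 1 of the members, so 7 of the 9 lie where 52.97% or 39.98% of all genes were lower in both. Fezf1, a zinc finger transcription factor, had the second largest shared difference among lower genes measured on all 3 arrays and read -4.44 in B4KO and -4.12 in Isl1KO, against -2.10 in WT. Chat, the acetylcholine-synthesizing enzyme, read -3.46 and -3.08, against -1.83 in WT, with other Chat probes giving differences as small as -0.52 in B4KO and -0.08 in Isl1KO. The vesicular acetylcholine transporter Slc18a3, named after its values were seen, was 14.2-fold lower in Isl1KO but 1.10-fold lower in B4KO, where the sign turned with median centring, so the cholinergic pair was not shared to the same degree. Calb1, a calcium-binding protein of horizontal and amacrine cells, read -2.35 in B4KO and -3.09 in Isl1KO, against -1.13 in WT. Another Calb1 probe differed by -0.30 in B4KO and -1.06 in Isl1KO. The horizontal list as a whole had 5 members higher and 3 lower of 11, with 0, 2, 7 and 2 members in the bins.

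Some of the 25 lowest named genes encode receptors and channels of neurons. Grin3a, an NMDA receptor subunit, read -2.29 in B4KO and -2.26 in Isl1KO, against -0.48 in WT. Grm5, a metabotropic glutamate receptor, read -2.01 and -2.41, against -0.48 in WT. The GABA-A receptor subunit gene Gabrg1 differed by -1.38 in B4KO and -1.66 in Isl1KO, the potassium channel Kcnk9 by -1.55 and -1.37, and the kainate receptor auxiliary protein Neto1 by -1.28 and -1.90. Another Neto1 probe differed by -1.12 in B4KO and -0.20 in Isl1KO. The homeobox gene Shox2 differed by -1.67 and -2.54. Among the 25 lowest named genes, probes disagreed in sign for Ston1, in both lines, and for Nlrp5, in Isl1KO; among the 25 highest they did so for Ptpn14, Ssh1 and Dubr.

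**Figure D3:**
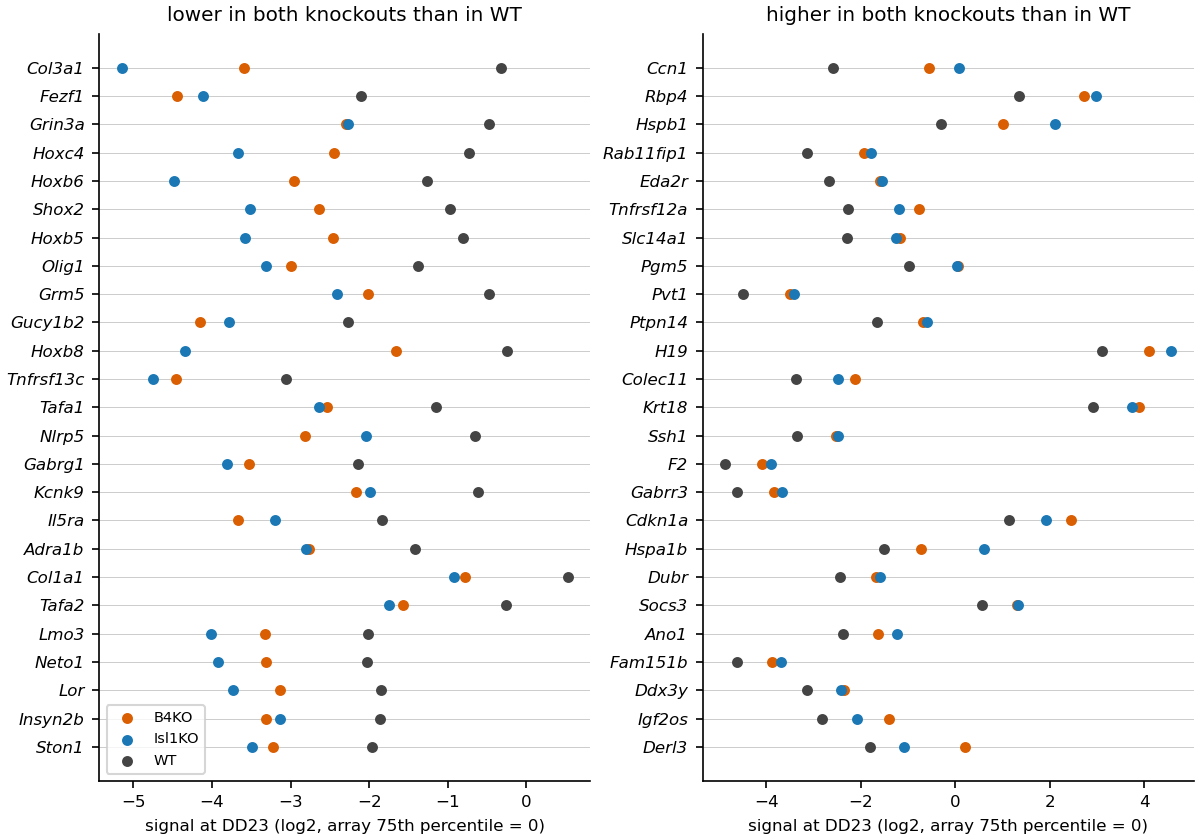
Signal at day 23 (log2, relative to the 75th percentile of the array) of the 25 lowest and 25 highest shared genes with established names that were well above background on all 3 arrays, 1 point per array (B4KO orange, Isl1KO blue, WT grey). For Grin3a both knockout points sit at -2.29 and -2.26, against -0.48 in WT, and for Hoxb8 the Isl1KO point lies at -4.34, farther from WT at -0.25 than B4KO at -1.66.

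Glial lists did not move as one. Of 32 Mueller glia markers measured, 9 were higher in both knockouts, 7 lower in both and 16 opposite, with medians of 0.23 in B4KO and -0.11 in Isl1KO. The bins hold 2, 3, 13 and 14 of the members. Over all genes 33.3% were higher in both, 32.2% lower in both and 7962 of 23053 opposite. Among the shared members, Dkk3, a secreted Wnt modulator, read 6.17 in B4KO and 5.80 in Isl1KO, against 5.49 in WT, and Kcnj10, the potassium channel of glial end-feet, read -2.60 and -2.74, against -1.97 in WT. The glutamate-clearing enzyme Glul differed by 0.22 in B4KO and -0.04 in Isl1KO. The oligodendrocyte lineage list had 8 of 14 members lower in both lines, 3 of them by 2-fold, and 4 higher. Olig1, a transcription factor of that lineage, read -3.00 in B4KO and -3.31 in Isl1KO, against -1.38 in WT. Sox10 and the myelin gene Mobp, both dim in B4KO and named after their values were seen, were at least 2.69-fold and at least 1.79-fold lower there, and 2.27-fold and 2.39-fold lower in Isl1KO. Those bounds hold in the main processing, and over the alternative settings the B4KO differences were as small as -0.78 and -0.67. The 8 lower members are 57.1% of the list, near the shares of 52.97% and 39.98% over all genes in the 2 dimmest bins, which hold 6 members each. Of 18 microglial names only 9 were measured, with Aif1, P2ry12, Tmem119 and Trem2 not passing the filter, and 4 of the 9 were lower in both lines. The bins hold 4, 1, 2 and 2 of the 9, beside 32.2% of all genes lower in both.

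Rod and dividing-cell genes mostly differed in opposite directions in the 2 lines, and bipolar genes were split. Of 17 rod markers, 9 had opposite signs, 5 were higher in both and 3 lower, with medians of -0.31 in B4KO and 0.35 in Isl1KO. The bins hold 3, 6, 4 and 4 of the members, and 7962 of all 23053 genes had opposite signs. Pde6g, the inhibitory subunit of the rod phosphodiesterase, was higher in both but by 0.12 in B4KO and 1.15 in Isl1KO. Among 13 cone markers, 6 were higher in both, none lower and 7 opposite, with medians of -0.03 in B4KO and 0.32 in Isl1KO. The B4KO median changed sign in 3 of 7 alternative settings. The bins hold 0, 4, 6 and 3 of the members, beside 33.3% of all genes higher in both. The shared members were led by the cone phosphodiesterase Pde6c, which read 3.05 in B4KO and 2.97 in Isl1KO, against 2.44 in WT. Of 17 rod and ON cone bipolar markers, 5 were higher in both and 6 lower, with medians of -0.07 and -0.03 whose signs turned with scaling. The bins hold 7, 1, 6 and 3 of the members, beside 33.3% higher and 32.2% lower in both over all genes. The bipolar gene Pcp2 differed by 0.34 in B4KO and 0.13 in Isl1KO, and the G protein regulator Rgs7 by -0.77 and -0.91. Of 35 cell cycle genes, 33 had opposite signs, with medians of 0.40 in B4KO and -0.45 in Isl1KO. The bins hold 0, 2, 11 and 22 of the members. The proliferation marker Mki67 differed by 0.47 in B4KO and -0.56 in Isl1KO.

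**Figure D4:**
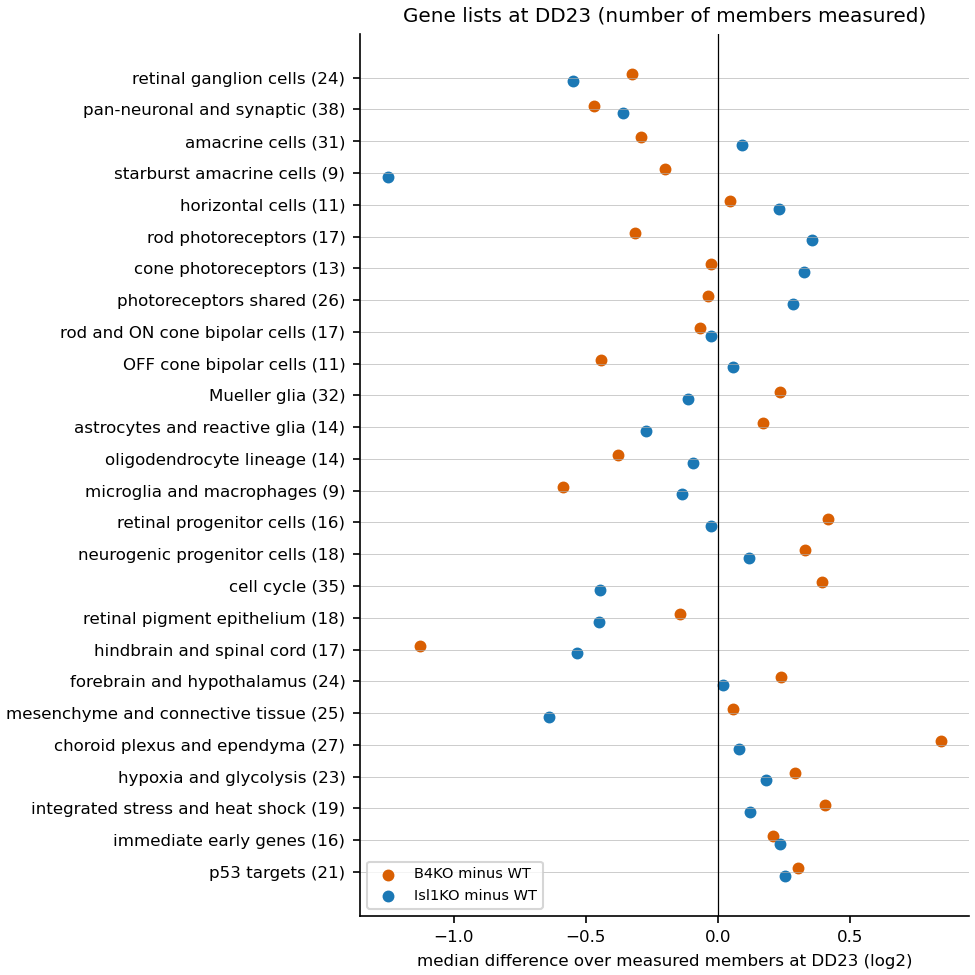
Median difference from WT at day 23 (log2) over the measured members of 26 of the 40 gene lists, for B4KO (orange) and Isl1KO (blue). Ganglion, pan-neuronal and hindbrain medians were among those below 0 in both lines, as were starburst, pigment epithelium, oligodendrocyte and microglia medians. Those of p53 targets and hypoxia were among those above 0 in both, as were immediate early, stress, neurogenic progenitor and choroid plexus medians. Cell cycle genes sat at 0.40 in B4KO and -0.45 in Isl1KO.

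Among the genes higher in both knockouts, Ccn1 had the largest shared difference. Ccn1 encodes a matricellular protein induced by growth factors and mechanical load. It read -0.55 in B4KO and 0.09 in Isl1KO, against -2.59 in WT, so it was 4.11-fold and 6.41-fold higher (probe at chr3:145310187-145310246, mm9). Its relative Ccn2 read -0.74 in B4KO and -1.0002 in Isl1KO, against -1.59 in WT. Both are textbook targets of the YAP and TEAD factors, and the promoter of Ccn1 is shown for that reason. The RefSeq window (GRCm38.p6, minus strand, chr3:145649936-145650235, 300 bases) holds 1 match to the TEAD core GGAATG or its reverse complement CATTCC, in capitals.
Ccn1: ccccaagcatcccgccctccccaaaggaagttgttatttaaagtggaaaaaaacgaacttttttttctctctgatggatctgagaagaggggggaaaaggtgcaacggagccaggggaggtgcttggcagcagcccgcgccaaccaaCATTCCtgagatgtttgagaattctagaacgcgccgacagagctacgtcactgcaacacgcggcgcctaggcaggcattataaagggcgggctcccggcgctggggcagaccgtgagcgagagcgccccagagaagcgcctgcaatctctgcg
The core is common, being found in 14.7% of 32851 such windows.

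Some heat shock genes were also higher in both lines. Hspb1, a small chaperone, read 1.01 in B4KO and 2.12 in Isl1KO, against -0.31 in WT, which is 2.50-fold and 5.395-fold higher. Hspa1b, the inducible 70-kilodalton chaperone, read -0.73 and 0.61, against -1.50 in WT, and its near-identical copy Hspa1a read 1.14 and 2.58, against 0.73 in WT. Because the copies are near identical, their probes may share signal. Of 19 genes of the stress and heat shock list, 12 were higher in both lines and 1 lower, with medians of 0.40 in B4KO and 0.12 in Isl1KO. The bins hold 3, 2, 6 and 8 of the members, so 8 lie where 56.0% of all genes were higher in both. The lower one was the cystine transporter Slc7a11, at -4.57 in B4KO and -4.96 in Isl1KO, against -3.32 in WT. Gdf15, a stress-induced cytokine, read 0.32 and 0.07, against -0.50 in WT. A strict heat shock element (GAA, TTC and GAA spaced by 2 bases, or its reverse complement) was found in 0.603% of all promoter windows. Of 6 heat shock genes searched it was in the windows of Hsph1, which differed by 0.33 in B4KO and 0.01 in Isl1KO. These letters were not in the windows of Hspb1, Hspa1a, Hspa1b, Dnajb1 and Hspa5.

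Targets of the p53 tumour suppressor were higher in both knockouts for 18 of 21 members and lower for 1, with medians of 0.30 in B4KO and 0.25 in Isl1KO. Of the members 10 lie in the brightest bin, where 56.0% of all genes were higher in both, 5 in the next, where 39.2% were, and 6 in the bin below, where 24.2% were. Eda2r, a receptor of the tumour necrosis factor family, read -1.59 in B4KO and -1.54 in Isl1KO, against -2.68 in WT. Cdkn1a, the cyclin-dependent kinase inhibitor p21, read 2.45 and 1.92, against 1.15 in WT. Phlda3 read 2.92 and 2.64, against 1.998 in WT, and Pmaip1, a pro-apoptotic BH3 protein, read -2.29 and -2.45, against -2.98 in WT. Immediate early genes were higher in both for 11 of 16 members and lower for 3, with medians of 0.21 in B4KO and 0.23 in Isl1KO. The bins hold 3, 6, 5 and 2 of the members, beside 33.3% higher in both over all genes. Fos read -2.08 in B4KO and -1.82 in Isl1KO, against -2.74 in WT, whereas the neuronal activity gene Npas4 was lower, at -3.62 and -3.19, against -2.59 in WT.

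The hypoxia and glycolysis list had 19 of 23 members higher in both lines and none lower, with medians of 0.29 in B4KO and 0.18 in Isl1KO. Of its members 17 lie in the brightest bin, where 56.0% of all genes were higher in both. Adm, which encodes the vessel-dilating peptide adrenomedullin, read 1.11 in B4KO and 1.14 in Isl1KO, against 0.47 in WT. The glycolytic regulator Pfkfb3 read 2.35 and 2.42, against 1.79 in WT.

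Some further genes higher in both lines are known from tissues other than the neural retina; which cells made them here was not tested. Rbp4, the carrier of retinol in blood and also made by pigment epithelium, read 2.73 in B4KO and 2.99 in Isl1KO, against 1.34 in WT. Krt18, a keratin of simple epithelia, read 3.90 and 3.75, against 2.92 in WT. The imprinted RNA H19 read 4.09 and 4.58, against 3.105 in WT, and Igf2, its imprinted neighbour that encodes an insulin-like growth factor, read 0.93 and 0.90, against 0.27 in WT. Of 27 choroid plexus and ependyma markers, 15 were higher in both and none lower, but the medians were 0.84 in B4KO and 0.08 in Isl1KO. The 15 include Otx2 and Kcne2, which are also on photoreceptor lists here. The bins hold 3, 7, 13 and 4 of the members, and over all genes 33.3% were higher in both. Transthyretin (Ttr), the main secreted protein of choroid plexus and also made by pigment epithelium, read 6.83 in B4KO and 5.55 in Isl1KO, against 5.28 in WT. The choroid plexus genes Kl, Cldn2 and F5 did not pass the filter.

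The day-10 and day-16 arrays, which the rule did not use, hold the same lines. No detection filter was set at these days, so the counts include genes below background there, such as Npy and Olig1 at day 10. Of the 166 genes lower in both at day 23, 103 were lower in both at day 10 and 56 at day 16, beside 33.1% and 25.4% of all genes, while 24 and 45 were higher in both. At 2-fold 18 were lower in both at day 10 and 7 at day 16, and over all genes 1.69% and 0.655% were. Of the 166 genes, 122 lie in the dimmest bin, where the B4KO median of all genes was -0.49 at day 10. How far the change was already present at day 10 was therefore not shown by these counts. Of the 26 higher genes, 4 were higher in both at day 10 and 8 at day 16, beside 32.2% and 25.2% of all genes, with 15 and 10 lower in both. At 2-fold 0 and 2 were higher in both, beside 0.369% and 0.191%. The day-16 values of the Hox genes lay close together across lines: Hoxb8 read 1.41 in B4KO and 0.58 in Isl1KO, against 1.01 in WT, and Hoxb6 read 0.55 and -0.04, against 0.37 in WT. Both were below background in all lines at day 10. The hindbrain list had medians of 0.03 in B4KO and -0.16 in Isl1KO at day 16. Col3a1 was not well above background in WT at day 16, so no day-16 difference is given for it. The p53 targets had medians of -0.41 in B4KO and -0.34 in Isl1KO at day 10 and 0.04 and -0.18 at day 16, and the pan-neuronal list had -0.27 and -0.36 at day 10 and 0.05 and 0.01 at day 16.

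**Figure D5:**
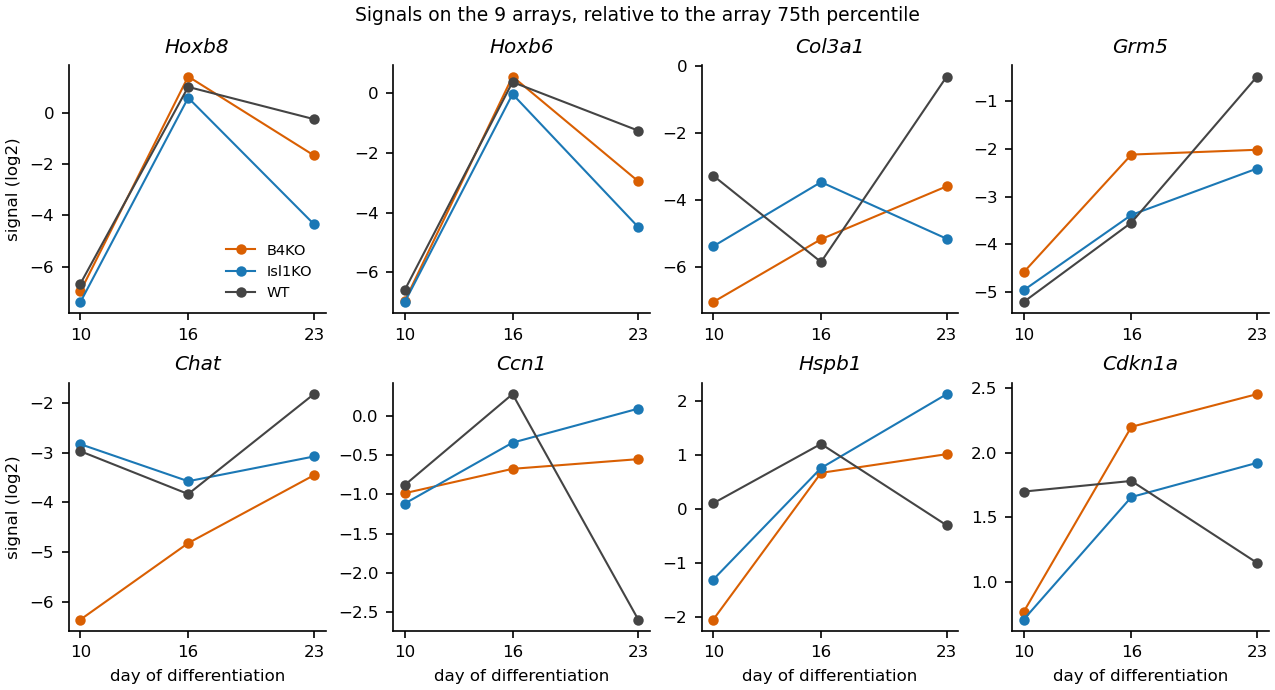
Signals (log2, relative to the 75th percentile of the array) of 8 genes on the 9 arrays, by day of differentiation, with 1 array per point (B4KO orange, Isl1KO blue, WT grey). The Hoxb8 lines lie within 0.58 and 1.41 at day 16 and at -1.66, -4.34 and -0.25 at day 23; day-10 points of both Hox genes are below background in all lines.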

How the data were processed

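The authors extracted the arrays by Agilent Feature Extraction 12.0.3.1, which subtracted background from the spot intensity and detrended it without scaling arrays to each other, per the file headers. The deposited signal table equalled that intensity divided by 1 constant per array for spots above 1, and was used as an alternative. Probe coordinates are mm9, per the file headers.

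Spots of a probe were averaged, 102 of 56605 gene probes with outlier flags were left out, and values were log2 intensity minus the 75th percentile of the array. RefSeq (GRCm38.p6) named 32926 probes by accession and 519 by a unique synonym, and 23058 kept the file's name. The brightest probe that passed the filter stands for a gene. A value not well above background gives a bound, with the dim value raised to the lowest signal well above background on its array. Such a bound holds for the main processing only, and the alternatives gave smaller differences for some genes. Named genes were both targets, the 25 highest and 25 lowest shared genes by the smaller difference, and up to 5 members per list; ranking used genes well above background on all 3 arrays, since dim values have no order. Some genes in the text, such as Pou4f1, Pou4f2, En2, Snap25, Glul, Pcp2 and Mki67, were named outside this rule. The members, the 40 lists and the motifs were chosen with earlier results of these data known. With 1 array per group there was no test; the difference and call steps were tested on simulated data. The number of arrays limits the precision. The 7 alternatives were quantile normalization, median centring, normexp with offset 50 (limma 3.58.1), 2 other detection filters, the median over probes and the deposited table. Python 3.11.15, pandas 2.3.3, numpy 2.4.6 and R 4.3.3 were used. Some genes are not reported here.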

Additional observations from a re-analysis of the deposited data

Results flagged for a closer look

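The 230 named genes came from the naming rule and from genes added after their values were seen. Of these, 12 were well above background wherever compared and had both day-23 differences opposite in sign to all 4 differences at days 10 and 16. That pattern is what singled them out, and that the differences vary with day was not tested. Another 5 showed the same signs but with a value not above background. The naming rule favours genes with shared day-23 differences, and the share of all genes with this pattern was not counted. Nothing is therefore read from the number of such genes. At each day both differences share the WT array of that day. Ccn1 differed by 2.04 in B4KO and 2.68 in Isl1KO at day 23, against -0.10 and -0.24 at day 10 and -0.95 and -0.62 at day 16. Hspb1 differed by 1.32 and 2.43 at day 23, against -2.16 and -1.41 at day 10 and -0.54 and -0.45 at day 16. Rab11fip1, an adaptor of recycling endosomes, differed by 1.20 and 1.36 at day 23, against -0.23 and -0.68 at day 10 and -0.50 and -0.27 at day 16. Eda2r differed by 1.09 and 1.14 at day 23, against -1.07 and -1.26 at day 10 and -0.12 and -0.18 at day 16.

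The other 8 differed by less than 2-fold in at least 1 line at day 23. Fos differed by 0.66 in B4KO and 0.91 in Isl1KO, the keratin gene Krt19 by 1.06 and 0.36, the epithelial factor Grhl3 by 0.23 and 0.11, Klf4 by 0.58 and 0.26, and the immunoproteasome subunit Psmb9 by 0.33 and 0.19. Otx2 differed by 0.34 in B4KO and 0.17 in Isl1KO, with the Isl1KO value turning negative under quantile normalization. The replication licensing gene Cdc6 differed by -0.48 and -0.43, and both signs turned with the median over probes. L1td1 differed by -0.22 and -0.08, and both signs turned with median centring.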

How the results depend on the processing

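Counts of shared 2-fold genes depended on scaling, background and filter more than on the probe rule. Against 26 higher and 166 lower, median centring gave 40 and 107, quantile normalization 46 and 137, normexp background correction 5 and 51, detection on all 3 arrays 9 and 98, detection on at least 1 array 70 and 519, the median over probes 26 and 166 (25 and 153 of them shared), and the deposited values 29 and 158. The cause was not tested, except that the filters change how many genes enter. Over these alternatives 419 of 460 named-gene differences and 59 of 80 list medians kept their sign; with the median over probes Ston1 turned to 0.79 and Trpm1 to 0.15 in B4KO. Pan-neuronal medians stayed between -0.53 and -0.23 in B4KO and between -0.40 and -0.26 in Isl1KO, and p53 target medians between 0.25 and 0.54 and between 0.21 and 0.35. No paired analysis was possible because each line had 1 array per day. Dim signal limits these data: 57 of the 166 lower genes were not well above background in B4KO and 17 of the 26 higher genes were not in WT. Their folds are bounds that hold in the main processing only.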

Other observations

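The imprinted RNAs Meg3 and Rian, from one cluster, were lower in B4KO and higher in Isl1KO: Meg3 read -2.90 in B4KO and 5.49 in Isl1KO, against 0.86 in WT, and Rian read -3.996 and 2.16, against -2.36 in WT; another Meg3 probe differed by 0.16 in B4KO. Cdkn1c, an imprinted cell cycle inhibitor named after its values were seen, differed by 0.40 in B4KO and 6.69 in Isl1KO. In the pigment epithelium list 10 of 18 members were lower in both lines and 3 higher, beside 32.2% and 33.3% of all genes, with the retinol uptake receptor Stra6 at -2.10 in B4KO and -0.45 in Isl1KO. The bins of signal, dim to bright, hold 3, 4, 8 and 3 of the members of that list. In the neurogenic progenitor list 10 of 18 were higher in both and none lower, such as Neurog2, a proneural factor, at 1.99 in B4KO and 1.74 in Isl1KO, against 1.36 in WT; 12 of the 18 lie in the brightest of 4 equal bins of signal, where 56.0% of all genes were higher in both.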
